A study of Mus musculus with 16 samples.

Results

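The myeloid C-type lectin receptors described here are 9 genes, Clec4e, Clec4d, Clec4n, Clec5a, Clec12a, Clec4a1, Clec4a2, Clec4a3 and Clec2d, which were taken by symbol from the 24411 genes of the count table. Their expression was followed in bone marrow chimeras, in which donor-derived macrophages settle in the brain parenchyma next to the microglia of the recipient. Wild-type C57BL/6J mice had been irradiated with 950 cGy and then given donor bone marrow. Host microglia had thus been irradiated themselves, whereas the donor cells were given after the irradiation. Differences between engrafted cells and host microglia cannot be told apart from an effect of this irradiation here. From each of 8 mice, Ly6C/G-negative, CD11b-positive cells were sorted as engrafted macrophages (low CD45.1, donor) or host microglia (low CD45.2, recipient). Mice 1 to 4 had received lipopolysaccharide (LPS, a bacterial endotoxin) at 2.5 mg/kg by a peripheral injection 12 h earlier, and mice 5 to 8 were not injected. This gives 4 groups of 4 libraries: unchallenged engrafted cells, engrafted cells after LPS, unchallenged host microglia and host microglia after LPS. The labels name more than 1 interval between transplantation and analysis without assigning it to a library, so the age of the graft is not given for single libraries here.

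C-type lectin receptors carry a carbohydrate recognition fold and let myeloid cells sense glycans, glycolipids and products of dying cells. Mincle (Clec4e), MCL (Clec4d) and Dectin-2 (Clec4n) pair with the adaptor Fcer1g, and MDL-1 (Clec5a) pairs with the adaptor Tyrobp (DAP12). These receptors signal through the kinase Syk, and Syk through Card9, Bcl10 and Malt1, towards NF-κB and cytokine transcription. Clec12a (MICL) and Clec4a2 (DCIR) carry an inhibitory motif that recruits the phosphatases Ptpn6 and Ptpn11. Clec4a1 and Clec4a3 are DCIR relatives without that motif, and Clec2d (Clr-b) is a ligand that inhibits NK cells through the receptor encoded by Klrb1b.

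All 9 genes lie on chromosome 6 (mm9). The 6 Clec4 genes stand within 368 kb that hold 9 genes of the table, the other members of that stretch being Clec4a4, Clec4b1 and Clec4b2. Clec4d (123212125 to 123225286, plus strand) and Clec4e (123231807 to 123239889, minus strand) are neighbours whose ends face each other. Clec4a1 (122871866 to 122884637), Clec4a3 (122902662 to 122919896), Clec4a2 (123073334 to 123094017) and Clec4n (123179861 to 123197042) are all on the plus strand. Clec5a (40524897 to 40535804, minus strand) lies apart, whereas Clec2d (129130633 to 129136553) and Clec12a (129300262 to 129315321), both on the plus strand, stand on the far side of the Clec4 cluster.

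The start regions of 4 genes are shown because their transcripts moved most with LPS: Clec4e and Clec4d, which rose in engrafted cells, Clec12a, which fell in them, and Clec4a1, which rose in both populations. Each sequence was read from the mm9 genome and spans 300 bases, from 250 bases before the annotated start into the first 50 transcribed bases. Capitals mark matches to the motifs searched on both strands. The windows are chr6:123239840-123240139, minus strand; chr6:123211875-123212174, plus strand; chr6:129300012-129300311, plus strand; and chr6:122871616-122871915, plus strand.
Clec4e: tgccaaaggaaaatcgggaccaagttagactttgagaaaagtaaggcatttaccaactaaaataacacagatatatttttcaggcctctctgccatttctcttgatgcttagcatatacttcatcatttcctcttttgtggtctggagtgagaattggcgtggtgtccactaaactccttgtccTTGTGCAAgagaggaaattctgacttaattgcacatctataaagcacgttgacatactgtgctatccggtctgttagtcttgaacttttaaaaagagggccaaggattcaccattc
Clec4d: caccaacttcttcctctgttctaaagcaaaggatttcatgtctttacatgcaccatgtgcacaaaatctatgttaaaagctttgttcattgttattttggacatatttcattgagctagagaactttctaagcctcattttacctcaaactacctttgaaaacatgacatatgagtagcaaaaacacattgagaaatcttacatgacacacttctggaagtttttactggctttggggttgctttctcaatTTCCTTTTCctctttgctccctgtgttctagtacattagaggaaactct
Clec12a: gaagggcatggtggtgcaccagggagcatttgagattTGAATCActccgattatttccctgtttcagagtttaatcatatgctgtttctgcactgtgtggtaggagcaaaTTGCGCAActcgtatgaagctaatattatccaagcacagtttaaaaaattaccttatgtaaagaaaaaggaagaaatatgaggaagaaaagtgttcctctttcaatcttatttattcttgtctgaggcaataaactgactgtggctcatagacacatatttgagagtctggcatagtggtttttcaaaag
Clec4a1: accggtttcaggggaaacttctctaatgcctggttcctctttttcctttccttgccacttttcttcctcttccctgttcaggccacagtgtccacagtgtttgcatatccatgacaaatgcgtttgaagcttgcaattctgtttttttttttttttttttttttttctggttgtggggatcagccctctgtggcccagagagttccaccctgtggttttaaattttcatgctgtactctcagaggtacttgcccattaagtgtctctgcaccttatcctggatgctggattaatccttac

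The motifs searched were TTGCNNAA for C/EBP, found in 9.95% of the 24341 start windows of the table, TGANTCA for AP-1 (7.12%), GAAANNGAA for interferon regulatory factors (8.26%), GGGNNTTNC for NF-κB (15.3%) and AGGAAGT for ETS factors such as PU.1 (9.23%). The capitals in Clec4e are a C/EBP match whose first base lies 66 bases before the start. In Clec4d they are an interferon regulatory factor match that begins at transcribed base 2. The Clec12a window holds an AP-1 match 213 bases and a C/EBP match 140 bases before the start, each of which reads on both strands and is 1 site. Clec4a1, Clec4n, Clec5a and Clec4a2 held no match to these letters in their windows. Of the remaining members, Clec4a3 had an NF-κB match 192 bases before its start, and Clec2d had an NF-κB match at 249 bases and an interferon regulatory factor match at 189 bases.

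Between 395283 and 1203597 reads per library fell on gene exons (median 820588). Levels are given in CPM, the reads of a gene relative to the library size after TMM scaling, and 3 reads correspond to 2.34 to 8.76 CPM depending on the library. The engrafted LPS library of mouse 4 was the shallowest. All 8 microglia markers examined had reads in every group. Sall1, a transcriptional repressor of host microglia, was at 318 ± 27.6 CPM in unchallenged host microglia and 17.6 ± 9.83 CPM in unchallenged engrafted cells (mean ± SD, n = 4 throughout). P2ry12, Tmem119 and Siglech were also lower in unchallenged engrafted cells. Fcrls (2359 ± 158 CPM in engrafted cells, 2315 ± 199 CPM in host microglia), Cx3cr1, Csf1r and Aif1 were at near equal means. In the comparisons below a gene is called when its log2 fold change exceeds 1 in size and its adjusted p is below 0.05 by the quasi-likelihood test of edgeR, with p-values adjusted by Benjamini-Hochberg across the tested genes. The reads are whole libraries of sorted cells, so fewer cells of a type and less RNA per cell cannot be told apart. Libraries of the same condition are separate mice. Interval bounds on read ratios cover the counting error of the pooled reads of a group, and leave out the spread between mice. No step that removes PCR copies is named, and such copies would make the bounds too narrow.

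Clec4e, the receptor for mycobacterial cord factor and for a ribonucleoprotein released by dead cells, was nearly silent until LPS was given, and then became abundant in engrafted cells. Unchallenged engrafted cells of mice 5 to 8 gave 2.03, 0, 3.35 and 7.41 CPM, from 2, 0, 2 and 4 reads. After LPS, engrafted cells of mice 1 to 4 gave 415, 477, 301 and 161 CPM. The groups did not overlap, although the 4 challenged libraries spread widely, with mouse 4 lowest and mouse 2 highest. The fitted log2 change with LPS was 6.76 ± 0.44 (SE; adjusted p = 5.04e-10, edgeR). Because the unchallenged group held 8 reads in all, the fitted value depends on the prior count and was 5.88 with a prior count of 2, and the read ratio was 125 (95% interval 63.4 to 291). Host microglia after LPS gave 6.79, 5.86, 4.76 and 2.80 CPM, from 6, 6, 4 and 2 reads, and unchallenged host microglia 1.48, 3.85, 0.779 and 0 CPM. Host levels overlapped the unchallenged engrafted levels, and both lay close to the 3-read level. Clec4e had too few reads in host microglia for the fit. The exact two-sided permutation test of the LPS difference there gave p = 0.0571, where the smallest value that 4 against 4 libraries allow is 0.029. The host read ratio of LPS to control was 3.46 (95% interval 1.32 to 10.6). After LPS the engrafted level exceeded the host level in 4 of 4 mice, by 6.02 ± 0.37 on the log2 scale (adjusted p = 2.45e-09, edgeR). In the 3 mice whose host library held more than 3 reads, the ratio ran from 61.1 to 81.3. Without LPS, engrafted and host levels were not separated (exact permutation p = 0.543), on 8 and 6 reads.

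**Figure D1:**
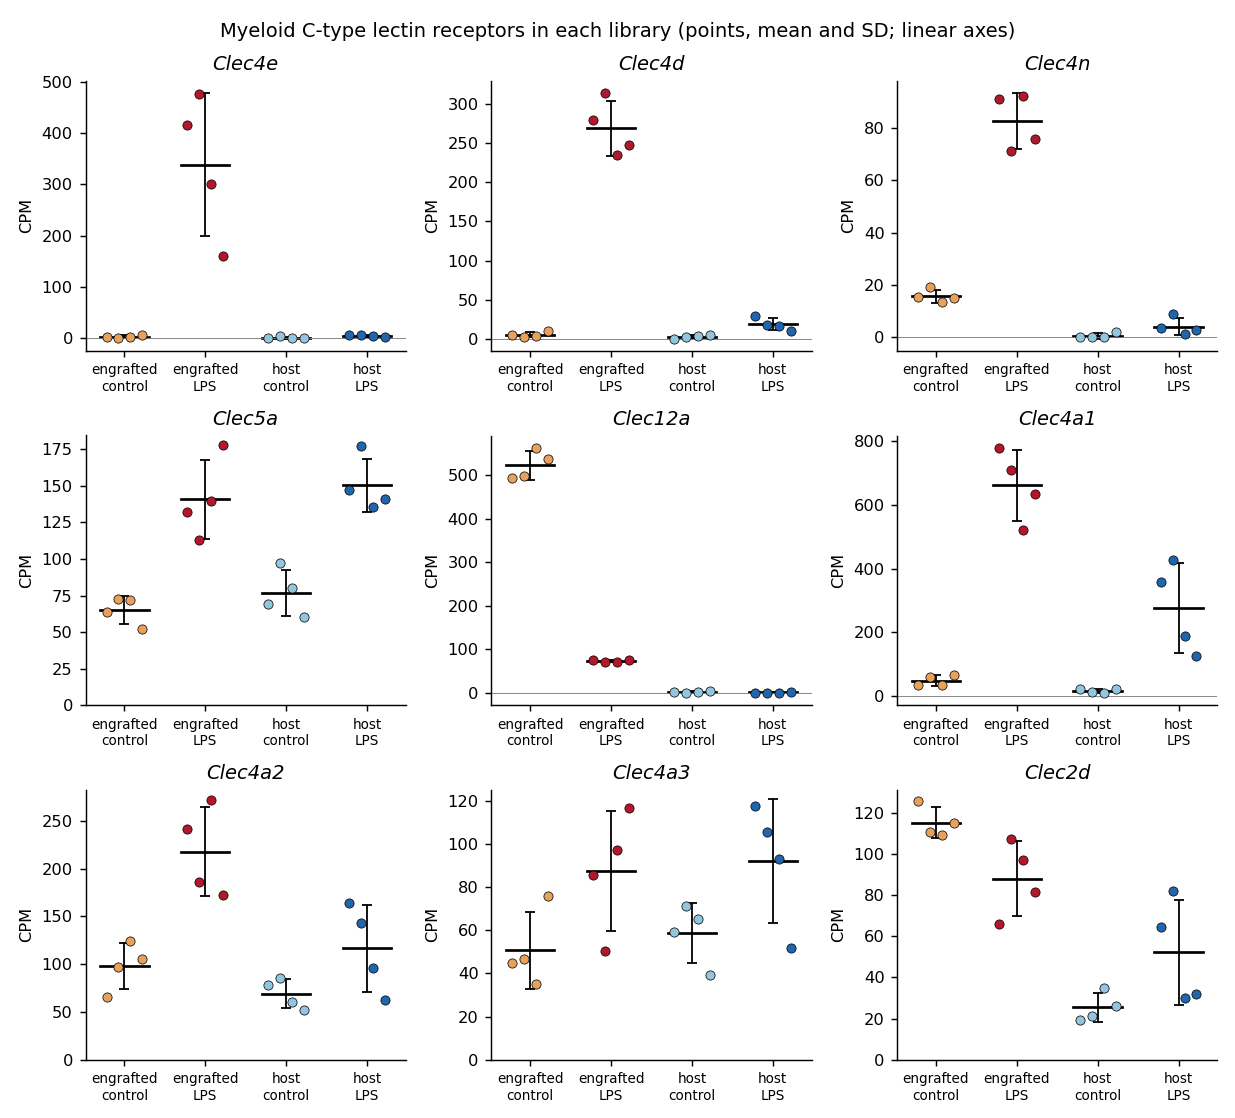
CPM of the 9 genes in each library (points, in order of mouse number within a group), with the mean (line) and SD (bar) of the 4 libraries of each group, on a linear axis per gene. Clec4e reaches 161 to 477 CPM in engrafted cells after LPS and stays at or below 7.41 CPM in the other 3 groups, whereas Clec12a is at 494 to 563 CPM in unchallenged engrafted cells and 71.6 to 75.9 CPM after LPS.

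Clec4d, the partner with which Mincle is co-expressed and forms a complex, followed the same course in engrafted cells. It rose from 4.05, 1.73, 3.35 and 9.27 CPM to 281, 314, 235 and 248 CPM, a log2 change of 5.86 ± 0.29 (adjusted p = 1.54e-11, edgeR; 5.21 with a prior count of 2). The challenged libraries were tight here, all within 235 to 314 CPM, in contrast to the spread of Clec4e. Host microglia after LPS gave 28.3, 17.6, 16.7 and 9.79 CPM and unchallenged host microglia 0, 1.92, 3.12 and 4.04 CPM. These host groups did not overlap, the exact permutation test gave p = 0.0286, the smallest possible, and the read ratio was 7.38 (95% interval 3.76 to 16.1). So few host reads kept Clec4d out of the edgeR fit of host microglia. DESeq2, run without the edgeR filter for low counts, gave a log2 change of 2.91 ± 0.66 (SE) with an adjusted p of 0.000106. It sets aside genes of low mean count by its own rule when it adjusts p, and Clec4d was not among them. After LPS the engrafted level exceeded the host level by 3.88 ± 0.25 on the log2 scale (adjusted p = 3.33e-09, edgeR), and by 9.91 to 25.3-fold within single mice.

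The difference between the LPS effects of the 2 populations was tested as an interaction over all 16 libraries. It was 5.09 ± 1.30 for Clec4e (adjusted p = 0.0170) and 3.06 ± 0.74 for Clec4d (adjusted p = 0.0120) in edgeR's quasi-likelihood test, both a larger rise in engrafted cells. Both calls rest on few unchallenged host reads. Without the control host library of mouse 6, Clec4e gave 4.12 with an adjusted p of 0.27. Without those of mouse 7 or mouse 8, Clec4d gave 2.90 and 2.76 with adjusted p of 0.0704 and 0.0824.

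Clec4n, encoding Dectin-2, a receptor for mannose-rich glycans of fungi, differed from Mincle and MCL in being present in engrafted cells before the challenge. Unchallenged engrafted cells gave 15.2, 19.05, 13.4 and 14.8 CPM. Unchallenged host microglia gave 0, 0, 0 and 2.02 CPM, from 0, 0, 0 and 2 reads. The engrafted level was higher in 4 of 4 mice, with a read ratio of 31.0 (95% interval 8.08 to 265). The fitted log2 difference was 4.61 ± 0.63 (adjusted p = 2.53e-06, edgeR) and 2.64 with a prior count of 2. LPS raised Clec4n in engrafted cells to 91.3, 71.0, 92.1 and 75.9 CPM, a log2 change of 2.40 ± 0.24 (adjusted p = 1.94e-07). Host microglia after LPS gave 3.40, 8.79, 1.19 and 2.80 CPM, with mouse 2 highest, and the exact permutation p of the host change was 0.0571. Their read ratio of LPS to control was 8.65 (95% interval 2.01 to 77.9). After LPS the engrafted level exceeded the host level by 4.24 ± 0.35 (log2; adjusted p = 7.69e-08, edgeR; 3.66 with a prior count of 2). The interaction was -0.36 with an adjusted p of 0.793, and its sign changed with a prior count of 2.

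Clec5a, which signals through Tyrobp and takes part in responses to flaviviruses, was the activating receptor with near equal levels in both populations. Unchallenged engrafted cells gave 63.9, 72.7, 72.1 and 51.9 CPM and unchallenged host microglia 69.3, 97.2, 80.2 and 60.6 CPM, and the host library was the higher in 4 of 4 mice. The log2 difference was -0.23 ± 0.18 (adjusted p = 0.371, edgeR). After LPS, the values were 132, 113, 139 and 178 CPM in engrafted cells and 147, 177, 136 and 141 CPM in host microglia, which overlapped. Within each population, every challenged library exceeded every unchallenged one. The log2 change with LPS was 1.08 ± 0.19 in engrafted cells (adjusted p = 1.85e-04, edgeR), which passed the 2-fold limit, and 0.95 ± 0.17 in host microglia (adjusted p = 1.19e-04), which did not. Both values stand at the limit. The engrafted change was 0.989 without the engrafted LPS library of mouse 4, 0.996 without the engrafted control library of mouse 8 and 0.995 with scaling by library totals, and the host change was 1.01 without the host LPS library of mouse 3 and 1.08 without the host control library of mouse 6. The difference between these LPS effects was 0.11 ± 0.25 (adjusted p = 0.860).

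Clec12a, the inhibitory receptor for uric acid crystals, was found almost only in engrafted cells and moved against the activating receptors. Its unchallenged engrafted levels were 494, 499, 563 and 537 CPM, on 288 to 487 reads per library. Unchallenged host microglia gave 1.48, 0, 2.34 and 5.05 CPM, on 9 reads in all. The read ratio was 230.1 (95% interval 121 to 504), and the fitted log2 difference 7.78 ± 0.27 (adjusted p = 3.17e-17, edgeR; 6.83 with a prior count of 2). LPS lowered Clec12a in engrafted cells to 75.9, 72.3, 71.6 and 75.9 CPM, and the 4 challenged libraries lay within 71.6 to 75.9 CPM. The log2 change was -2.83 ± 0.18 (adjusted p = 4.76e-10, edgeR), a mean of 73.9 ± 2.29 CPM against 523 ± 33.0 CPM. Even after this fall, engrafted cells stood above host microglia, which gave 1.13, 0.977, 0 and 2.80 CPM after LPS. That log2 difference was 5.82 ± 0.39 (adjusted p = 6.53e-09, edgeR; 4.38 with a prior count of 2), on 4 host reads in all. Whether Clec12a moved with LPS in host microglia could not be read from 9 and 4 reads (exact permutation p = 0.571). The interaction for Clec12a was -1.95 ± 0.94 (adjusted p = 0.268, edgeR) and was not called, and it rests on those same host reads.

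Clec4a2, encoding the inhibitory receptor DCIR, was detected in both populations at levels of the same order. Unchallenged engrafted cells gave 65.9, 97.0, 124 and 106 CPM and unchallenged host microglia 78.2, 85.6, 60.0 and 52.5 CPM, which overlapped (log2 difference 0.50 ± 0.19, adjusted p = 0.0526, edgeR). After LPS, engrafted cells gave 241, 185, 271 and 172 CPM, a log2 change of 1.18 ± 0.21 (adjusted p = 1.74e-04). This change was called, but was 0.998 without the engrafted control library of mouse 5. Host microglia after LPS gave 164, 143, 96.4 and 62.9 CPM, with mice 1, 2 and 3 above every unchallenged host library and mouse 4 within their range. The host log2 change of 0.77 ± 0.24 had an adjusted p of 0.0131 in edgeR but stayed within 2-fold. After LPS every engrafted library exceeded every host library, by 0.91 ± 0.26 on the log2 scale (adjusted p = 0.0181), just short of the 2-fold limit. It passed that limit without the engrafted library of mouse 4 (1.01), or without the host library of mouse 1 (1.12) or mouse 2 (1.02). The interaction was 0.40 ± 0.34 (adjusted p = 0.565, edgeR) and was not called.

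Clec4a1 and Clec4a3, the DCIR relatives without the inhibitory motif, parted in their response. Clec4a1 rose in engrafted cells from 36.5, 58.9, 33.5 and 66.7 CPM to 780.0, 712, 521 and 636 CPM, and in host microglia from 22.1, 11.5, 10.1 and 21.2 CPM to 360.0, 427, 188 and 127 CPM. No 2 groups overlapped, in the order of engrafted LPS, host LPS, engrafted control and host control. The host LPS libraries spread most, with mice 1 and 2 above mice 3 and 4. The log2 change with LPS was 3.78 ± 0.24 in engrafted cells (adjusted p = 4.38e-10) and 4.14 ± 0.35 in host microglia (adjusted p = 4.52e-09) by edgeR's quasi-likelihood test. The difference between these effects was -0.35 ± 0.45 (adjusted p = 0.732). Engrafted cells had more Clec4a1 in 4 of 4 mice in either condition, by 1.62 ± 0.30 (log2; adjusted p = 1.29e-04, edgeR) when unchallenged and 1.27 ± 0.30 (adjusted p = 0.00562) after LPS. Within single mice the ratio ran from 1.65 to 5.10 without and from 1.67 to 5.00 with LPS.

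For Clec4a3 no comparison was called. Unchallenged libraries gave 44.6, 46.8, 35.2 and 76.0 CPM in engrafted cells and 59.0, 71.2, 65.4 and 39.4 CPM in host microglia. Challenged libraries gave 85.8, 50.6, 97.2 and 117 CPM and 118, 106, 92.8 and 51.7 CPM. Neighbouring groups in the order of means all overlapped. The log2 change with LPS was 0.76 ± 0.26 in engrafted cells (adjusted p = 0.0277) and 0.65 ± 0.23 in host microglia (adjusted p = 0.0280) in edgeR, both within 2-fold. Without the engrafted control library of mouse 8, the engrafted change was 1.00 and was called. Between the populations it differed by -0.23 ± 0.22 without and -0.11 ± 0.26 with LPS (adjusted p = 0.490 and 0.853, edgeR). The interaction was 0.11 ± 0.37 (adjusted p = 0.917, edgeR).

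Clec2d, the NK cell ligand, was higher in unchallenged engrafted cells than in host microglia, by less after LPS. Unchallenged engrafted cells gave 126, 111, 109 and 115 CPM and unchallenged host microglia 19.2, 21.2, 35.1 and 26.2 CPM, with no overlap. The log2 difference was 2.15 ± 0.19 (adjusted p = 1.13e-09, edgeR), and the ratio within mice ran from 3.11 to 6.56. After LPS, engrafted cells gave 66.0, 107, 97.2 and 81.7 CPM and host microglia 64.5, 82.1, 29.8 and 32.2 CPM, where mouse 2 lay within the engrafted range and mouse 1 just below it. The difference was then 0.75 ± 0.29 (adjusted p = 0.0870) and the ratio within mice 1.02 to 3.27. With the mouse as a block its adjusted p was 0.0357 at 0.79, still under 2-fold, and without the host LPS library of mouse 2 the difference was 1.06 and was called. The LPS effect was -0.39 ± 0.19 in engrafted cells (adjusted p = 0.104) and 1.02 ± 0.29 in host microglia (adjusted p = 0.00767), the latter called but at the 2-fold limit. Without the host LPS library of mouse 1 or 2 that host change was 0.918 and 0.712, and without the host control library of mouse 5 or 6 it was 0.925 and 0.919. The interaction was -1.41 ± 0.36 (adjusted p = 0.0163, edgeR), with adjusted p of 0.0524 without the host LPS library of mouse 2 and 0.0515 without the host control library of mouse 6.

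**Figure D2:**
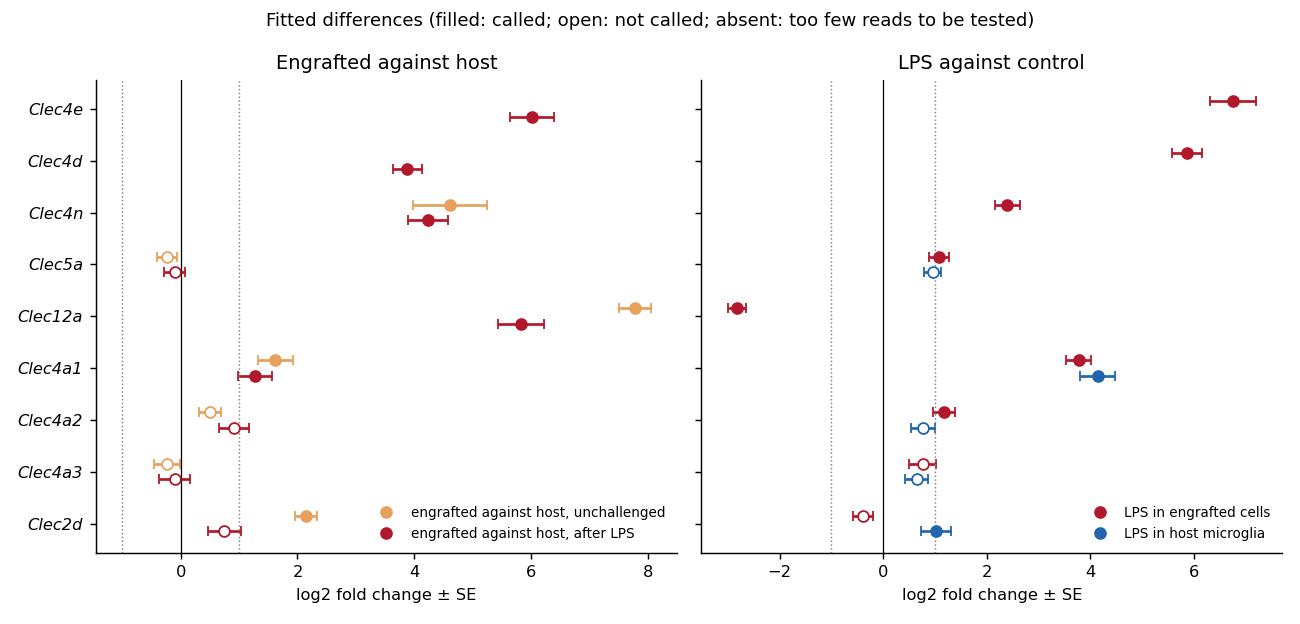
Fitted log2 fold changes (points) with SE (bars) of the 9 genes, engrafted against host on the left and LPS against control on the right. Filled points were called, open points were not, genes with too few reads for the fit have no point, and dotted lines mark a 2-fold change. In engrafted cells Clec4e rises by 6.76 and Clec12a falls by 2.83 on the log2 scale, whereas Clec4a1 rises in both populations.

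Counted over the members, unchallenged engrafted cells had 4 of 7 tested members higher than host microglia (Clec12a, Clec4n, Clec2d and Clec4a1), against 6.25% of the 8042 genes tested. No member was called lower, where 4.73% of genes were. At an unadjusted p under 0.05, 5 members were higher and 0 lower. For that looser rule the share of all genes was not counted, here or below. DESeq2 called 4 members higher and 0 lower, and 725 and 484 of the 24411 genes of the table. Only 16354 of these had a read, and DESeq2 sets aside further genes of low mean count. Its counts over 24411 genes, here and below, thus understate the share of genes tested. The median log2 difference was 1.62 over the tested members and 0.02 over all genes tested. Clec12a and Clec4n, with 9 and 2 host reads in all, passed the filter for low counts through engrafted cells, where they were high. With 10 reads required in every library, Clec4a1 and Clec2d alone were called. After LPS, 5 of 9 members were higher in engrafted cells (Clec4e, Clec12a, Clec4n, Clec4d and Clec4a1), against 6.73% of 7843 genes, and 0 were lower, against 4.34%. At an unadjusted p under 0.05 these counts were 7 and 0, and in DESeq2 5 and 0, where it called 695 and 370 of the 24411 genes. The medians were 1.27 for the members and -0.01 for all genes. Clec4e, Clec12a and Clec4n, with 18, 4 and 15 host reads in all, passed the filter through engrafted cells. With 10 reads required in every library, Clec4a1 alone was called. Scaling by library totals shifted the median of all genes by -0.15 in this comparison and turned 528 genes higher and 340 lower into 448 and 471, while the 5 members stayed called.

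With LPS, engrafted cells had 6 of 9 members higher (Clec4e, Clec4d, Clec4a1, Clec4n, Clec4a2 and Clec5a), where 10.2% of 7609 genes were, and 1 lower (Clec12a), where 11.3% were. The median change was 1.18 for the members and -0.01 for all genes. Every challenged library lay outside the range of the unchallenged ones for 8 of the 9, Clec4a3 being the exception. The share of all genes that separate in this way was not counted, so this count has no background to stand against. Clec4e and Clec4d, with 8 and 12 unchallenged reads in all, passed the filter for low counts through the challenged libraries. Host microglia had 2 of 5 tested members higher (Clec4a1 and Clec2d), against 7.66% of 8238 genes, and 0 lower, against 10.4%. At an unadjusted p under 0.05 all 5 tested members were higher and 0 lower, a rule for which the share of all genes was not counted. DESeq2 called 3 higher, adding Clec4d, and 0 lower, and 743 and 945 of the 24411 genes of the table. The host median was 0.95, against 0.01 for all genes, and the other 4 members were under the minimum of reads and hence not part of these counts. Keeping those low genes in the fit added Clec4d at 2.83 and Clec4n at 2.78, for 4 called. The interaction was called for 2 members with the larger LPS change in engrafted cells (Clec4e and Clec4d), against 2.45% of 8847 genes, and for 1 with the smaller (Clec2d), against 2.5%. These comparisons share libraries, so their counts are not independent of each other.

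Within the Clec4 cluster the response to LPS was uneven. Of the 3 genes there that are not described above, Clec4b2 was listed at 0 in all 16 libraries and Clec4a4 was at 1.79 ± 2.07 CPM or below in mean. Clec4b1 went the other way from its neighbours, with 12.9 ± 2.54 CPM in unchallenged engrafted cells and 1.40 ± 2.08 CPM after LPS, and was under the minimum of reads. Near-identical stretches in other genes can take or lose reads. Of the stretches of 50 bases in their transcripts, 6.49% of those of Clec4a2 also occurred in another gene, in 159 genes in all, of which Clec4a4 and Clec4b1 are the relatives, and 1.98% of those of Clec2d in Clec2g or Clec2i, whereas none did for the other 7 members. Uniquely mapped reads were counted, so the values of Clec4a2 and Clec2d are uncertain. These shares cover whole transcripts, whereas the libraries read the 3′ end, so they do not measure how many reads were affected.

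**Figure D3:**
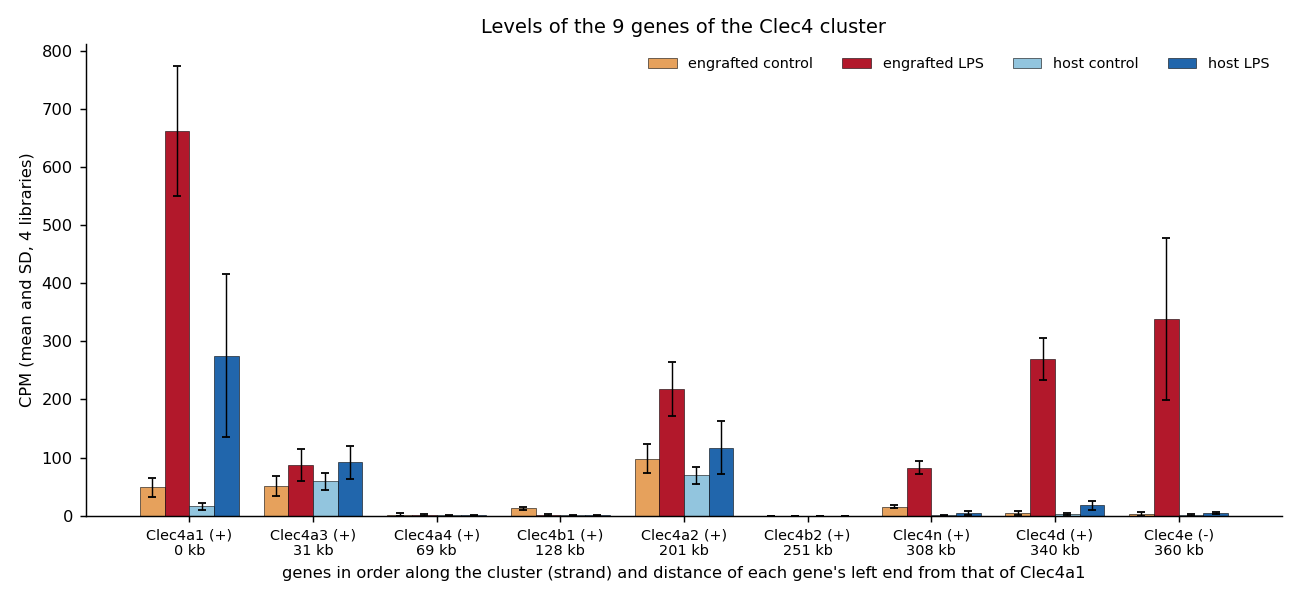
Mean CPM (bars) and SD (lines) over the 4 libraries of each group for the 9 genes of the Clec4 cluster, in their order along chromosome 6, with the distance of each gene's left end from that of Clec4a1. Heights compare groups within a gene, not genes with each other. Clec4a1 at one end and Clec4d and Clec4e at the other are highest in engrafted cells after LPS, while Clec4a4 and Clec4b2 between them stay near 0.

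The adaptors of these receptors were abundant in both populations, whereas Card9 was near the 3-read level in both. Fcer1g, the adaptor of Mincle, MCL and Dectin-2, was at 1020.2 ± 154 CPM in unchallenged engrafted cells and 1135 ± 70.5 CPM in unchallenged host microglia. After LPS it was at 2086 ± 277 and 1504 ± 129 CPM, a called log2 change of 1.03 ± 0.18 in engrafted cells (adjusted p = 1.30e-04) and 0.40 ± 0.14 in host microglia (adjusted p = 0.0238, edgeR). The interaction for Fcer1g was 0.63 ± 0.21 with an adjusted p of 0.0808. Tyrobp, the adaptor of Clec5a, was at 2199 ± 304, 2030.1 ± 213, 2660.0 ± 128 and 2503 ± 300.0 CPM in unchallenged and challenged engrafted cells and unchallenged and challenged host microglia, and was called in no comparison. Card9, at 2.54 ± 1.00 CPM in unchallenged engrafted cells and 3.43 ± 2.38 CPM in unchallenged host microglia, was under the minimum of reads in both populations.

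Of 23 adaptors and signalling genes, 21 were tested in every comparison. None was called between the populations, either unchallenged or after LPS, by edgeR. Over all genes 6.25% were called higher and 4.73% lower when unchallenged, and 6.73% and 4.34% after LPS. At an unadjusted p under 0.05, 2 of the list were higher and 8 lower in unchallenged engrafted cells, and 3 and 2 after LPS. DESeq2 called 1 higher and 0 lower in each condition. LPS raised 3 and lowered 1 in engrafted cells, and raised 2 and lowered 1 in host microglia. Over all genes 10.2% and 11.3% were called in engrafted cells and 7.66% and 10.4% in host microglia, so these few genes stand near the background. The Src family kinase gene Fgr rose in both, by 4.31 ± 0.26 and 3.42 ± 0.21, and Rubcn, a regulator of phagosome maturation, fell in both, by 1.68 and 1.21 on the log2 scale. Ptpn11, which encodes the phosphatase SHP-2, rose in host microglia by 1.27 ± 0.27. In the interaction 1 of 21 was called higher and 0 lower, where 2.45% and 2.5% of all genes were. Pycard, the inflammasome adaptor ASC, was the gene of this list whose LPS effect was called as different between the populations. It rose from 167 ± 17.5 to 492 ± 89.7 CPM in engrafted cells and stood at 309 ± 5.26 and 316 ± 44.7 CPM in host microglia, an interaction of 1.52 ± 0.23 (adjusted p = 1.13e-04, edgeR).

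Of 22 genes known to be induced downstream of Syk and Card9, most of which LPS also induces through its own receptor, 12 were tested in engrafted cells and 14 in host microglia. LPS raised 10 and 11 of them, against 10.2% and 7.66% of all genes, and lowered none, against 11.3% and 10.4%, in the edgeR test; at an unadjusted p under 0.05, 1 was lower in each population, and DESeq2 called 0 lower. Cxcl2, a chemokine for neutrophils, rose by 4.14 ± 0.28 in engrafted cells and 3.85 ± 0.38 in host microglia. Il1b rose by 2.82 ± 0.24 and 3.20 ± 0.29. None of 15 tested genes had a called interaction, where 2.45% of all genes were called higher and 2.5% lower. An unadjusted p under 0.05 gave 1 in each direction and DESeq2 called 0. After LPS, 4 of 14 were higher in engrafted cells, led by Cxcl1 (5.44 ± 0.50) and Cxcl2 (3.72 ± 0.36), and 6 were lower, led by Il1a (-2.14 ± 0.35). Cxcl1 had at most 5 reads in a challenged host library and passed the filter for low counts through engrafted cells, where it was high. DESeq2, run without the edgeR filter for low counts, called 7 higher and 5 lower. The balance thus turned with the tool and the genes it covered, which were not separated. Without LPS, 3 of 11 were higher, led by Cxcl2 (3.41 ± 0.30) and Cd40 (2.05 ± 0.24), and 4 lower, led by Il1a (-2.12 ± 0.21), where DESeq2 called 5 and 4. The shares over all genes were 6.73% and 4.34% after LPS and 6.25% and 4.73% without.

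Among 31 other C-type lectin receptors, unchallenged engrafted cells had 6 of 7 tested genes higher than host microglia and 0 lower, against 6.25% and 4.73% of all genes; DESeq2 called 12 and 1, and at an unadjusted p under 0.05 the counts were 6 and 0. Klra2 (6.71 ± 0.63), Mgl2 (5.87 ± 0.61) and Clec2i (4.66 ± 0.51) led on the log2 scale. They had at most 1, 2 and 4 reads in an unchallenged host library. All of them passed the filter for low counts through engrafted cells, where they were high, so the count of 6 rests in part on that filter. After LPS 2 of 6 were higher, Klra2 (5.23 ± 0.53) and the mannose receptor Mrc1 (5.15 ± 0.25), and 0 lower in edgeR. Over all genes 6.73% were called higher and 4.34% lower. An unadjusted p under 0.05 gave 2 and 1 of the list, and DESeq2 4 and 1. Klra2 again had few host reads, at most 3 in a challenged host library, and passed the filter through engrafted cells. LPS raised 1 of 9 tested in engrafted cells, Cd302, and lowered 3, where DESeq2 called 2 and 6 and the shares over all genes were 10.2% and 11.3%. The 3 were the galactose lectin Mgl2 (fell by 4.52), the β-glucan receptor Clec7a, or Dectin-1 (fell by 3.10), and Clec2i (fell by 2.06). Mgl2 had at most 2 reads in a challenged engrafted library and passed the filter through the unchallenged ones. In host microglia LPS raised 2 of 4, Cd72 (2.82 ± 0.27) and Cd302 (1.21 ± 0.17), and lowered Clec7a (by 1.23). Over all genes 7.66% were called higher and 10.4% lower, and DESeq2 called 4 and 1 of the list. Thus Clec7a, which like Clec4e feeds Syk and Card9, was at 123 ± 23.1 CPM in unchallenged and 14.5 ± 6.33 CPM in challenged engrafted cells, the reverse order of Clec4e. The interaction was called for Cd72 (-2.07 ± 0.45) and Clec7a (-1.88 ± 0.37), with adjusted p of 0.00436 and 0.00174 in edgeR. With LPS, Cd72 rose less and Clec7a fell more in engrafted cells than in host microglia. Of 9 tested genes, 2 were thus called lower and 0 higher, where 2.5% and 2.45% of all genes were.

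Genes with the most similar course over the 16 libraries were named for each member by Pearson's correlation of log2 CPM. They were Slpi (r = 0.98) and Slfn4 (0.97) for Clec4e, Prdx6 (0.98) and Fpr2 (0.97) for Clec4d, and Cd38 (0.97) and Vim (0.97) for Clec4n. For Clec5a they were Cd302 (0.97) and Cept1 (0.94), for Clec12a Pltp (0.99) and Iqgap2 (0.98), and for Clec4a1 Il1b (0.99) and Sdc4 (0.97). Clec4a2 had Rsad2 (0.89) and Zbp1 (0.89), Clec4a3 Trmt10c (0.85) and Psmd6 (0.83), and Clec2d Cybb (0.93) and Ahr (0.91). These are descriptions over libraries that fall into 4 groups and share their depth, and carry no test.

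Markers of other cells moved together with some of these values. The 8 monocyte markers summed to 212 to 345 CPM in unchallenged engrafted cells and 1208 to 2278 CPM after LPS, against 9.35 to 25.2 and 20.5 to 54.5 CPM in host microglia. Among them Ly6c2 went from 30.8 ± 8.85 to 711 ± 201 CPM in engrafted cells, although the sort excluded cells with surface Ly6C, while Ccr2 went from 159 ± 67.0 to 46.2 ± 13.4 CPM. The engrafted LPS library of mouse 4 had both the lowest monocyte sum and the lowest Clec4e level. Mouse 1 had the highest monocyte sum and mouse 2 the highest Clec4e level. Their part in the rise of Clec4e, Clec4d, Clec4n and Clec4a1 was not tested. The 10 neutrophil markers summed to 276 to 1274 CPM in unchallenged and 49.4 to 502 CPM in challenged engrafted cells, and to 0 to 2.34 and 9.52 to 14.7 CPM in host microglia. Mmp8, a neutrophil collagenase of that list, went the other way from the sum in engrafted cells, from 0.253 ± 0.507 to 26.7 ± 9.88 CPM, and was listed at 0 in host microglia. Ly6g was at or under 2 reads in every library. Mouse 2, with the lowest neutrophil sum after LPS, had the highest Clec4e and Clec4d levels, and the unchallenged library with the sum of 1274 CPM had 3.35 CPM of Clec4e. The part of neutrophils in these values was not tested. Perivascular macrophage markers summed to 798 to 940 CPM in unchallenged and 667 to 736 CPM in challenged engrafted cells, and to at most 31.8 CPM in host microglia. They stand apart between the populations as Clec12a and Clec4n do, and their part in those differences was not tested. Dendritic cell markers stayed at or under 38.9 CPM in sum. Microglia markers summed to 14345 to 15486 CPM in unchallenged and 4779 to 6103 CPM in challenged engrafted cells. In host microglia their sums were 18449 to 20776 and 8628 to 10102 CPM. The part of this fall in the values above was not tested.

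**Figure D4:**
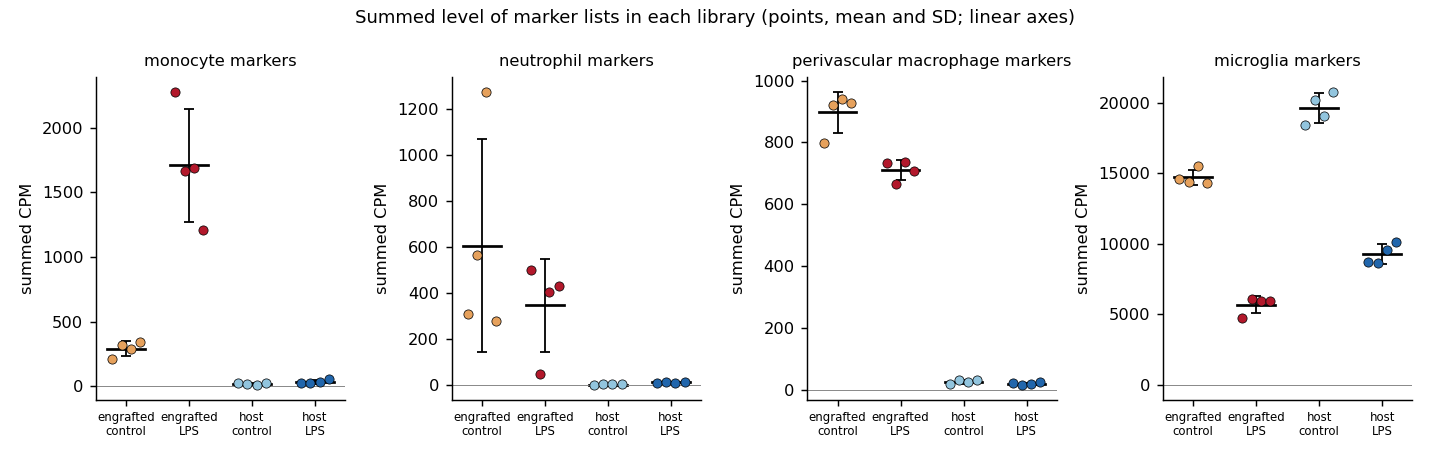
Summed CPM of 4 marker lists in each library (points), with the mean (line) and SD (bar) of each group of 4, on linear axes. Monocyte markers reach 1208 to 2278 CPM in engrafted cells after LPS, the group in which Clec4e and Clec4d are high. Neutrophil markers overlap between challenged and unchallenged engrafted cells.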

How the data were processed

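RNA was sequenced from 16 libraries of sorted brain macrophages, from 8 mice with both populations taken from the same animal. Per the labels, mRNA of a fixed number of sorted cells was captured by its poly(A) tail and made into libraries by a derivation of MARS-seq, which reads the 3′ end of transcripts. The authors mapped the reads to mm9 with HISAT (0.1.5 in the submitters' processing notes), kept unique alignments, and deposited raw counts of sense reads on the exons of 1 transcript model per gene, made with HOMER. The sources used here name no step that removes PCR copies. Counts of such libraries do not scale with transcript length, so levels were not compared between genes.

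All 24411 genes entered the analysis, of which 16354 had a read. Each comparison was fitted on its own groups with edgeR 4.0.16 (R 4.3.3), with its default filter for low counts (minimum count of 10), TMM scaling and the quasi-likelihood test, without a term for the mouse. Genes were called at a log2 fold change above 1 in size and a Benjamini-Hochberg adjusted p below 0.05. The SE given with edgeR values is the size of the log2 change divided by the square root of the F statistic of that test. It therefore moves with the prior count and is no guide for changes close to 0. Members under the filter were compared by an exact two-sided permutation test of mean log2(CPM + 0.5). Read ratios carry 95% exact intervals that cover the counting error of pooled reads only, not the spread between mice. Alternatives were DESeq2 1.42.0, other scaling, other filters, 1 fit over all libraries, the mouse as a block, a prior count of 2 (added after seeing the data; the default is 0.125) and leaving out each library. The procedure was tested on simulated counts.

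The members, the gene lists and the tests were chosen with earlier results of these data known. All members were to be named in each comparison, with up to 3 called genes per list and comparison of the largest change, and the 2 genes most correlated with each member. Other genes of the lists, such as Fcer1g, Tyrobp, Card9, Cd302 and the marker genes, were named for their role after their values were seen. Libraries of 1 group differed by more than sampling noise in all 24 pairs (chi-square per degree of freedom 1.98 to 8.64). The mouse numbers pair the libraries because the design states that both populations came from the same animal. Deviations from the group means correlated between the populations of a mouse at -0.03 to 0.21. Between the engrafted library of a mouse and the host libraries of other mice of its condition they correlated at -0.06 to 0.01 on average. Deviations within a group sum to 0, so the latter values largely follow from the former and are no separate contrast.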

Additional observations from a re-analysis of the deposited data

Results flagged for a closer look

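Clec4n in unchallenged host microglia had 1 library far from the others, that of mouse 8 at 2.02 CPM, which is 2 reads, against 0 in the other 3. Among the 36 combinations of gene and group that were examined, chance alone would mark about 1 in 20 if values varied smoothly. That rate does not hold here, since any read in 1 library beside 0 in the other 3 is marked.

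The response to LPS differed between engrafted cells and host microglia, by the interaction in edgeR, for Clec4e (5.09 on the log2 scale, the larger rise in engrafted cells), Clec4d (3.06, likewise) and Clec2d (-1.41, the smaller change in engrafted cells).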

How the results depend on the processing

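Of 656 values of member fold changes recomputed under the alternatives, 625 kept their direction and side of the threshold, 16 no longer passed it, 7 newly passed it and 8 changed sign. The sign changes were those of values close to 0 or on few reads: Clec4a3 after LPS (-0.29 to 0.11 with 1 library left out), Clec4a3 in the interaction (-0.0558 to 0.3409) and Clec4n in the interaction (1.05 with a prior count of 2, and -2.435 to 0.41 with 1 library left out). For these the cause was not tested.

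Requiring 10 reads in every library left 2 members higher in unchallenged engrafted cells, 1 after LPS, 2 with LPS in engrafted cells, 1 with LPS in host microglia and 0 in the interaction. That requirement removed members with few reads in 1 group, such as Clec4e and Clec4d, from the test, but Clec5a in engrafted cells (0.9775) and Clec2d in host microglia (0.9889) were tested and lost the call by falling under 2-fold. With LPS in host microglia, 4 members were called higher in 1 fit over all libraries and 4 with no filter, 1 with a prior count of 2, and 1 to 4 with 1 library left out (1 without the LPS library of mouse 2, 4 without that of mouse 3). Leaving out 1 library left 1 to 2 members with the larger LPS change in engrafted cells, and 0 to 1 with the smaller. With the mouse as a block in paired fits, the counts stayed at 4 and 5 members higher in engrafted cells and at 2 and 1 in the interaction, and no call on a member changed. Over all genes, calls of higher and lower genes went from 503 and 380 to 230 and 172 (unchallenged), from 528 and 340 to 245 and 136 (after LPS), from 775 and 861 to 385 and 431 (LPS in engrafted cells), from 631 and 853 to 381 and 490 (LPS in host microglia) and from 217 and 221 to 141 and 110 (interaction) under the requirement of 10 reads, and without a filter to 895 and 559, and 857 and 495, in the first pair of comparisons. Depth limits the host values of Clec4e, Clec4d, Clec4n and Clec12a, which rest on 0 to 25 reads per library.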

Other observations

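Across the 16 libraries, log2 CPM of Clec4e and Clec4d, the tail-to-tail neighbours, correlated at r = 0.96, that of Clec4d and Clec4a1 at 0.89, and that of Clec4e and Clec4a1, the 2 ends of the Clec4 cluster, at 0.79. Clec5a and Clec12a correlated at -0.40. These values describe libraries that fall into 4 groups and carry no test.

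Klrb1b, which encodes the NK cell receptor for the Clec2d product, had at most 11 reads in any library, with means of 2.17 CPM in unchallenged and 5.90 CPM in challenged engrafted cells, and 0.447 and 4.86 CPM in host microglia.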
